A study of Mus musculus with 62 samples.

Results

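The genes of 3 families of potassium channels whose activity ethanol is known to alter were followed across the mouse brain after ethanol: the BK channel genes Kcnma1 and Kcnmb4, the SK channel genes Kcnn1, Kcnn2 and Kcnn3, and the GIRK channel genes Kcnj3, Kcnj6 and Kcnj9. They were picked by name, with earlier results of these data known, and all 8 were among the 56415 genes counted. The shares of all genes given beside counts of members or markers below are therefore a scale and not a test. Male C57BL/6J mice, 8 to 10 weeks old, received i.p. ethanol (2 g/kg, as 20% ethanol in saline) or an equal volume of saline, given 1 time (acute) or on 10 consecutive days (chronic). Tissue was taken 4 h after the final dose. No transgene or mutation is named for any group. Poly(A) RNA was sequenced from the cortex (CTX), the dorsal (dHPC) and ventral (vHPC) hippocampus and the dorsal (DS) and ventral (VS) striatum, giving 62 libraries from 16 mice, 4 mice for each combination of treatment and paradigm, in 20 groups of 3 libraries except for 2 groups of 4 (acute ethanol in dHPC, chronic ethanol in DS).

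BK channels open on membrane depolarization together with a rise of calcium inside the cell, and they shape the falling phase and the afterhyperpolarization of action potentials. SK channels respond to calcium alone, through calmodulin that is bound to the channel, and they set the slower part of the afterhyperpolarization. GIRK channels are opened by the G protein beta-gamma subunits that inhibitory receptors release, among them GABA-B, opioid and dopamine D2 receptors, and they hold neurons near rest. Ethanol acts directly on BK and GIRK channels, and repeated ethanol has long been studied for its effects on SK channels in the hippocampus and the ventral striatum.

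The 8 genes lie on 8 chromosomes. In the GRCm39 coordinates of the count table, Kcnma1, the pore-forming BK subunit, spans chr14:23339499-24064559 on the minus strand and Kcnmb4, the neuronal beta4 subunit that slows BK gating, chr10:116253766-116309340 (minus). The SK subunit genes Kcnn1, Kcnn2 and Kcnn3 span chr8:71294693-71315902 (minus), chr18:45401927-45818950 (plus) and chr3:89427471-89582439 (plus). The GIRK subunit genes Kcnj3, Kcnj6 and Kcnj9 (GIRK1, GIRK2 and GIRK3) span chr2:55325982-55488157 (plus), chr16:94549495-94798555 (minus) and chr1:172148068-172156885 (minus). All values are for whole genes, summed over their exons. In GENCODE, exons of all members except Kcnn3 overlap exons of genes on the opposite strand, for example Igsf8 at Kcnj9 and Kcnmb4os1 and Kcnmb4os2 at Kcnmb4. Its member exons cover more bases than those counted here (9826 against 4288 at Kcnj9), and how much of the overlap lies in counted exons was not tested. Where it does, reads of such partners cannot be told apart in the non-directional CTX and dHPC libraries.

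Library size ranged from 8149628 to 71164766 counts. The CTX and dHPC libraries were made with a non-directional kit and sequenced separately from the vHPC, DS and VS libraries, which were made with a directional kit, so differences of level between these sets cannot be told apart from that batch. Levels were therefore tested within each set only. Replicate 2 of the chronic saline DS group held no counts on chromosomes 7, 8, 9, X and Y, on the mitochondrial genome, or on chromosome 6 beyond position 22875501. It was left out of every value below unless it is named, which leaves 2 chronic saline libraries in DS. Markers of striatal projection neurons summed to between 4360 and 6847 CPM (counts scaled to library size) in the saline DS libraries and between 330 and 438 CPM in those of CTX. In dHPC, chronic saline replicate 5 stood apart with 2748 CPM of these markers against 241 to 952 CPM in the other saline libraries of that region. Tissue pieces were sequenced in bulk, so fewer cells of a type and less RNA per cell cannot be told apart in any value that follows.

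The sequences around the transcription starts of the 3 GIRK genes are shown because these genes were all called lower in DS after acute ethanol in the results below. Each runs from 250 bases before to 50 bases after the start that RefSeq gives on GRCm38.p6, an older build than that of the counts, so the positions are not those of the loci above. Kcnj9 is at chr1:172329273-172329572 (minus), Kcnj3 at chr2:55435720-55436019 (plus) and Kcnj6, at its upstream start, at chr16:94997647-94997946 (minus). Capitals mark a match to 1 of 4 motifs searched on both strands: the TATA box TATAAA, the GC box GGGCGG, the cAMP response element TGACGTCA and the E box CACGTG.
Kcnj9: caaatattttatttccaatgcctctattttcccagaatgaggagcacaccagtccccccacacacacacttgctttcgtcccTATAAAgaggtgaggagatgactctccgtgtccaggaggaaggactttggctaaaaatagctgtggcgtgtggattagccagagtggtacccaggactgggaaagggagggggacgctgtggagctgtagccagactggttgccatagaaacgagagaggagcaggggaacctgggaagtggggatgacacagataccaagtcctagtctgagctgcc
Kcnj3: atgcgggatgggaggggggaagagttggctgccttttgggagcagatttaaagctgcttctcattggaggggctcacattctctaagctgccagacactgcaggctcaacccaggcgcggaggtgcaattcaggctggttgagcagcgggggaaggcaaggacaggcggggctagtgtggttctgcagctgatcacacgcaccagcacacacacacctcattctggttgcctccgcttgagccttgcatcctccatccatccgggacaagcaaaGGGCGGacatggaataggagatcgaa
Kcnj6: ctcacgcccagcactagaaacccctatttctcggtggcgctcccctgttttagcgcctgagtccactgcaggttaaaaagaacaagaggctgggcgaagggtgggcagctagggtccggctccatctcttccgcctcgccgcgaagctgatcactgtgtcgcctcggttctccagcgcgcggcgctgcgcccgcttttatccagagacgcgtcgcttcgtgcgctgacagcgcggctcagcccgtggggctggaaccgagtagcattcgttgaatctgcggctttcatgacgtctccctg
The Kcnj9 window held the TATA box and the Kcnj3 window the GC box, 1 match each, and the Kcnj6 window held none of the 4. A second Kcnj6 start in the table, at chr16:94856641-94856940, had 1 GC box in its window. Of 32851 promoter windows in the table, 13.6% held TATAAA, 35.7% GGGCGG, 1.79% TGACGTCA and 7.15% CACGTG. Windows were found for 7 of the 8 members, Kcnn2 being the exception. Their GC content ran from 52.3% at Kcnj9 to 78.0% at Kcnma1 and 79.0% at Kcnmb4, and the latter 2 windows held 3 and 4 GC boxes. These matches describe the letters of the windows only.

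In saline-treated mice the 3 families had unlike regional profiles. To compare genes with each other, levels were expressed as CPM per kilobase of exon (RPKM), over 6 saline libraries per region (5 in DS). A GIRK transcript, Kcnj9 or Kcnj3, was the most abundant of the 8 in every region. Kcnj9 ranked first in CTX (50.02 ± 1.40 RPKM, SD, n = 6), in DS (11.8 ± 3.62 RPKM, n = 5) and in VS (13.5 ± 2.42 RPKM, n = 6). Kcnj3 ranked first in dHPC (27.0 ± 4.68 RPKM) and vHPC (25.9 ± 3.71 RPKM). The least abundant was Kcnn3 in CTX (1.32 ± 0.17 RPKM), dHPC (2.11 ± 0.49 RPKM) and vHPC (2.27 ± 0.51 RPKM), and Kcnj6 in DS (1.07 ± 0.27 RPKM) and VS (1.42 ± 0.51 RPKM).

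**Figure D1:**
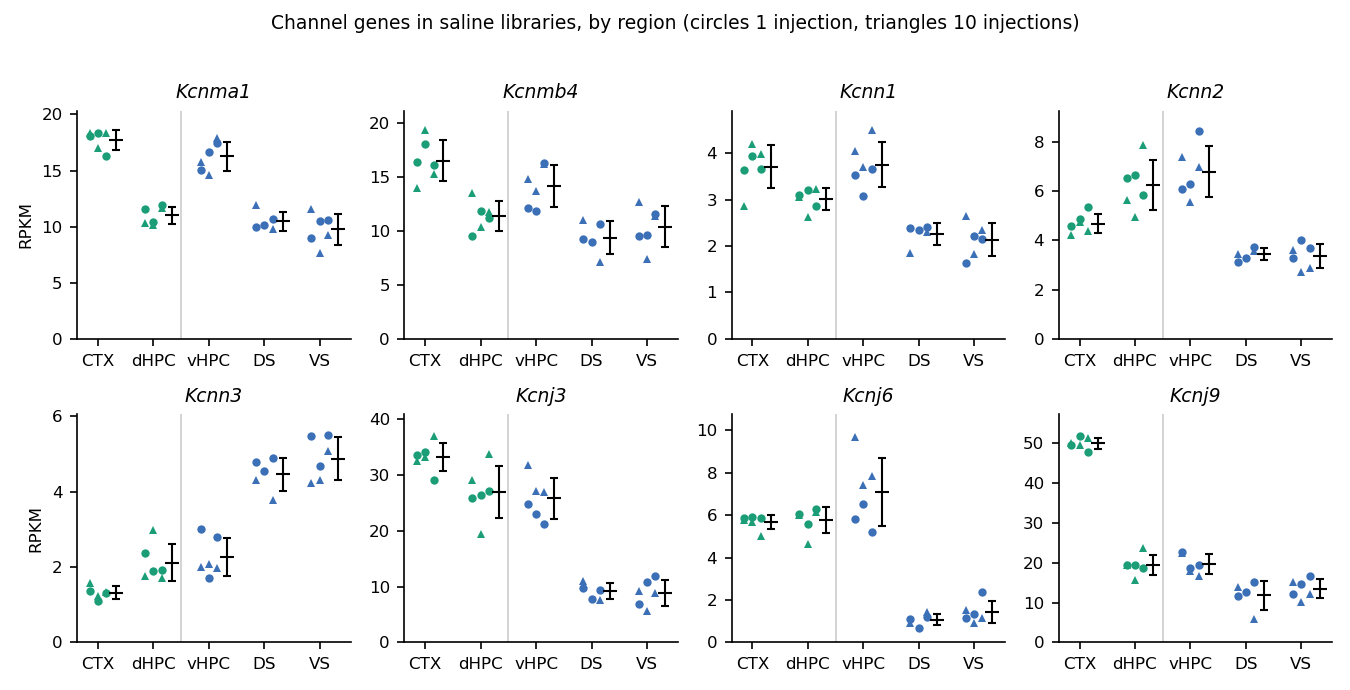
Level of each channel gene (RPKM, vertical axis from 0) in the saline libraries of the 5 regions; circles are mice with 1 injection, triangles mice with 10, bars the mean ± SD, and the grey line separates the library sets made with different kits. Kcnj3 and Kcnj6 fall from vHPC to DS and VS without overlap, while Kcnn3 rises.

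The BK subunits were highest in CTX and vHPC. Mean Kcnma1 was 17.8 RPKM in CTX and 11.01 in dHPC, and 16.3, 10.5 and 9.77 RPKM in vHPC, DS and VS. Mean Kcnmb4 was 16.5 and 11.4 RPKM in CTX and dHPC and 14.2, 9.39 and 10.4 RPKM in vHPC, DS and VS. Kcnma1 made up between 48.7% (VS) and 53.6% (vHPC) of the summed RPKM of the 2 genes, so they were present at about equal levels per length in each region.

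The SK subunits changed their order between forebrain regions. Kcnn2, the SK subunit enriched in hippocampus and cortex, was the main SK transcript in CTX, dHPC and vHPC, where it made up 48.2%, 54.7% and 52.9% of the summed SK RPKM. Kcnn3 made up 13.7%, 18.8% and 17.7% there. In the striatum this order turned: Kcnn3 made up 43.9% of the SK sum in DS (range 39.14 to 46.5%) and 47.0% in VS (range 40.3 to 52.7%), against 33.9% and 32.4% for Kcnn2. Kcnn1 ranged from 2.14 RPKM in VS to 3.75 RPKM in vHPC.

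Among GIRK subunits, Kcnj6, which can form channels by itself, was the minor transcript in all regions. Its share of the GIRK sum was 6.41% in CTX, against 11.2% and 13.4% in the dorsal and ventral hippocampus and 5.20% and 5.88% in the dorsal and ventral striatum. Kcnj3, which needs a partner subunit to reach the membrane, and Kcnj9 divided the rest. In the hippocampal regions Kcnj3 held 51.5% (dHPC) and 49.1% (vHPC), and in CTX, DS and VS Kcnj9 held 56.2%, 52.5% and 57.2%.

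The regional differences were tested with edgeR's quasi-likelihood test, with genes called at a Benjamini-Hochberg adjusted p (FDR) below 0.1. Between CTX and dHPC, 7 of the 8 genes were called, where 55.3% of all genes tested were. Kcnj9 was 2.58 times higher in CTX (log2 difference 1.37 ± 0.07, SE, FDR = 1.41e-09), with 205 to 222 CPM in CTX and 67.3 to 102 CPM in dHPC. Kcnma1 (0.69 ± 0.05), Kcnmb4 (0.55 ± 0.09), Kcnj3 (0.31 ± 0.10) and Kcnn1 (0.31 ± 0.08) were also higher in CTX, and Kcnn3 (-0.68 ± 0.13) and Kcnn2 (-0.41 ± 0.09) were lower. The highest Kcnn3 value of dHPC, 31.3 CPM, was that of the library with many striatal markers, and without it the Kcnn3 log2 difference was -0.54. Kcnj6 was not called, and the 95% interval of its log2 difference ran from -0.16 to 0.12. With the ethanol libraries in place of the saline ones, a choice made after the data were seen, Kcnj6 was called (-0.39) and Kcnj3 was not (0.13).

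All 8 genes were called between DS and vHPC (42% of all genes) and between VS and vHPC (39.5%), with the same signs in both. The largest difference was that of Kcnj6, with 39.7 to 74.1 CPM in vHPC, 5.36 to 10.9 CPM in DS and 7.13 to 18.2 CPM in VS. Its log2 difference from vHPC was -2.71 ± 0.23 in DS (FDR = 3.45e-08) and -2.28 ± 0.21 in VS (FDR = 7.69e-08). Kcnj3 followed (-1.49 ± 0.16 in DS, -1.53 ± 0.15 in VS), with 111 to 166 CPM in vHPC against 40.1 to 57.9 CPM in DS and 29.2 to 61.8 CPM in VS. Kcnn2, Kcnn1, Kcnma1, Kcnj9 and Kcnmb4 were lower as well, with log2 differences between -1.004 and -0.44. Kcnn3 alone was higher, with 39.5 to 51.0 CPM in DS and 44.2 to 57.5 CPM in VS against 18.0 to 31.4 CPM in vHPC, a log2 difference of 0.96 ± 0.11 and 1.12 ± 0.11. Thus Kcnn3 was higher in both striatal regions than in vHPC, and the other members were lower. By estimate alone, Kcnn3, Kcnj6, Kcnj9 and Kcnmb4 stood higher in VS than in DS and the other members lower, differences that were not called.

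The 2 striatal regions themselves did not separate. None of the 8 genes was called between DS and VS by edgeR, where 5.41% of all genes were, none had an unadjusted p below 0.05 (18.2% of all genes), and DESeq2 called 0 (9.1% of all genes). The interval of the log2 difference was widest for Kcnj6, from -0.90 to 0.05, so a moderate difference was not detectable with these libraries. With the ethanol libraries instead, also a choice made after the data were seen, 3 genes were called between DS and VS: Kcnma1 (0.31 ± 0.07), Kcnmb4 (-0.34 ± 0.10) and Kcnj9 (-0.27 ± 0.11). The estimated steps from vHPC to DS were larger in those ethanol libraries than in saline for all but Kcnma1, and the 5 that moved most were at -4.15 for Kcnj6, -2.21 for Kcnj3, -1.497 for Kcnj9, -1.17 for Kcnmb4 and 1.30 for Kcnn3 on the log2 scale. The difference between the ethanol and saline steps was not tested.

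Acute ethanol changed 5 of the 8 genes in DS, 4 of them down and 1 up. All 3 GIRK subunits and the BK subunit Kcnmb4 fell, and the SK subunit Kcnn3 rose. Over all genes tested in DS, 5.15% were called, 3.1% lower and 2.05% higher. For these 5 genes the saline and ethanol libraries did not overlap, which was the case for 21.2% of all genes in DS. DESeq2 called 5 members as well, and 6.4% of all genes, and 5 had an unadjusted p below 0.05 (15.5% of all genes).

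Kcnj3, whose product is part of most neuronal GIRK channels, measured 50.9, 41.0 and 49.0 CPM in the saline libraries and 21.3, 24.7 and 27.8 CPM in the acute ethanol libraries of DS. Every ethanol value was below every saline value, and the fold change was 0.52 (log2 fold change -0.94 ± 0.11, FDR = 0.00049). Kcnj6 measured 8.41, 5.36 and 9.12 CPM with saline and 3.06, 2.79 and 3.47 CPM with ethanol. It was the member with the lowest level in DS and the one with the largest change, falling to 0.41 of its saline level (95% interval 0.28 to 0.59, log2 fold change -1.30 ± 0.25, FDR = 0.0114). Kcnj9 measured 50.2, 54.0 and 64.6 CPM with saline and 34.3, 33.3 and 35.1 CPM with ethanol. The ethanol libraries lay close together, and the fold change was 0.60 (-0.73 ± 0.10, FDR = 0.000799).

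Of the BK subunits, Kcnmb4 measured 30.8, 29.7 and 35.2 CPM with saline and 18.0, 20.1 and 21.1 CPM with acute ethanol in DS. It fell to 0.61 of its saline level (log2 fold change -0.71 ± 0.11, FDR = 0.00253). Kcnma1, its pore-forming partner, measured 169, 172 and 181 CPM with saline and 158, 178 and 164 CPM with ethanol. These groups overlapped, Kcnma1 was not called, and its fold change was 0.95 with a 95% interval from 0.86 to 1.05. The share of Kcnma1 in the summed RPKM of both genes accordingly went from 51.7% (range 50.1 to 53.1%) to 62.4% (range 60.4 to 63.5%).

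Kcnn3 moved the other way in DS after acute ethanol. It measured 50.1, 47.6 and 51.0 CPM with saline and 64.9, 57.9 and 70.1 CPM with ethanol, all of the latter above all of the former. The fold change was 1.28 (log2 fold change 0.36 ± 0.08, FDR = 0.0321), and the call was lost without acute ethanol replicate 5 (FDR = 0.16). The other SK subunits were not called: Kcnn1 had a log2 fold change of -0.17 (95% interval -0.50 to 0.16) and Kcnn2 of -0.11 (95% interval -0.34 to 0.12). When all 4 DS groups shared one estimate of the spread, 3 genes stayed called (Kcnj3, Kcnmb4 and Kcnn3), and Kcnj6 and Kcnj9 had FDR = 0.181 and 0.176.

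**Figure D2:**
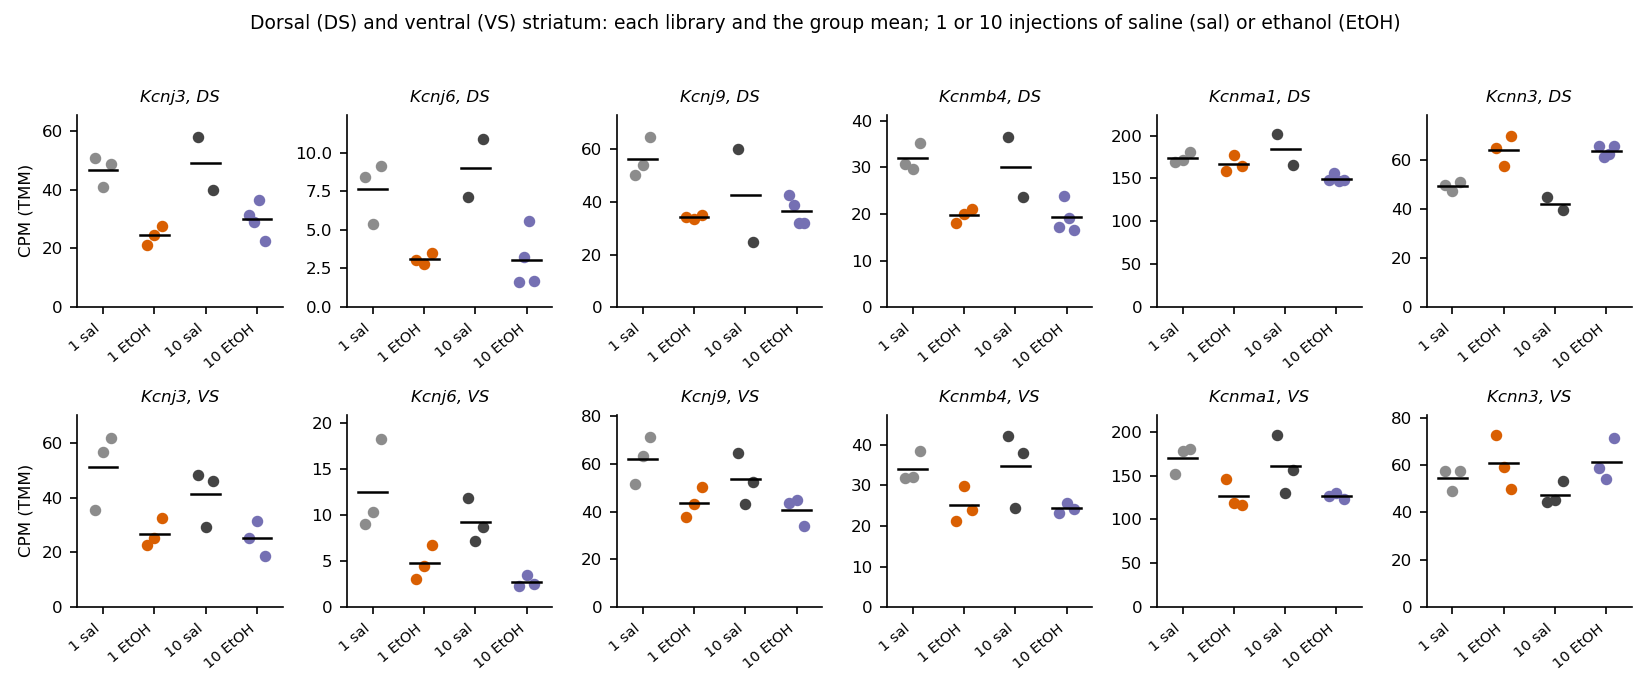
CPM (vertical axis from 0) of 6 channel genes in each library of DS and VS, by paradigm and treatment, with the group mean as a bar. In DS after acute ethanol the ethanol points of Kcnj3, Kcnj6, Kcnj9 and Kcnmb4 lie below all saline points and those of Kcnn3 above them.

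In VS the GIRK genes and Kcnmb4 also had lower means after acute ethanol, but edgeR called none of the 8 genes there, and 0.0399% of all genes. Of the 8 members 5 had an unadjusted p below 0.05 (7.32% of all genes), the groups of 5 did not overlap (12.5% of all genes), and DESeq2, which called 0.889% of all genes, called 3: Kcnj3 (adjusted p = 0.00349), Kcnj6 (adjusted p = 0.0103) and Kcnma1 (adjusted p = 0.0971). Kcnj6 measured 8.97, 10.3 and 18.2 CPM with saline and 3.06, 4.504 and 6.75 CPM with ethanol (edgeR log2 fold change -1.41 ± 0.34, FDR = 0.343). Kcnj3 measured 35.6, 56.5 and 61.8 CPM with saline and 22.5, 25.3 and 32.6 CPM with ethanol (-0.95 ± 0.21, FDR = 0.251). Both estimates lay near those in DS, with wider errors.

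Kcnma1 in VS measured 152, 178 and 180 CPM with saline and 146, 118 and 117 CPM with acute ethanol (-0.43 ± 0.11, FDR = 0.396). The ethanol values were all below the saline ones. Kcnj9 (-0.52 ± 0.15, FDR = 0.435) and Kcnmb4 (-0.46 ± 0.15, FDR = 0.504) also had groups that did not overlap. Kcnn3 measured 57.4, 49.0 and 57.5 CPM with saline and 72.5, 59.3 and 50.04 CPM with ethanol, which overlapped (0.13 ± 0.14). Calls in VS depended on single libraries: without acute saline replicate 2 edgeR called Kcnj3, and without acute ethanol replicate 2 it called Kcnma1.

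Outside the striatum no member was called after acute ethanol by either tool. edgeR called 1.99% of all genes in CTX, 0.042% in dHPC and 0% in vHPC. DESeq2 called 3.69%, 1.07% and 2.9% of all genes there. Members with an unadjusted p below 0.05 numbered 2 in CTX, 0 in dHPC and 1 in vHPC, where 12.5%, 7.88% and 11.9% of all genes had one. Members whose groups did not overlap numbered 1, 0 and 1, where 17.6%, 8.14% and 17.9% of all genes had such groups. In CTX the log2 fold changes of the 8 genes lay between -0.13 and 0.23, the extremes being Kcnj9 and Kcnn1, and in dHPC between -0.09 and 0.15. The intervals for Kcnj3 ran from -0.27 to 0.04 in CTX and from -0.27 to 0.08 in dHPC, which does not include the value in DS. In vHPC, Kcnj6 had a positive estimate, with 44.6, 49.9 and 39.7 CPM with saline against 58.9, 45.3 and 73.7 CPM with ethanol (0.40 ± 0.17, unadjusted p = 0.043, FDR = 0.403). Dentate granule neuron markers in these vHPC libraries summed to 77.1 to 250 CPM with saline and 310 to 498 CPM with ethanol, with 0 of 5 called by edgeR, 5 with an unadjusted p below 0.05 and 1 called by DESeq2. Their part in the Kcnj6 value was not tested. The other members in vHPC lay between -0.18 and 0.10.

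**Figure D3:**
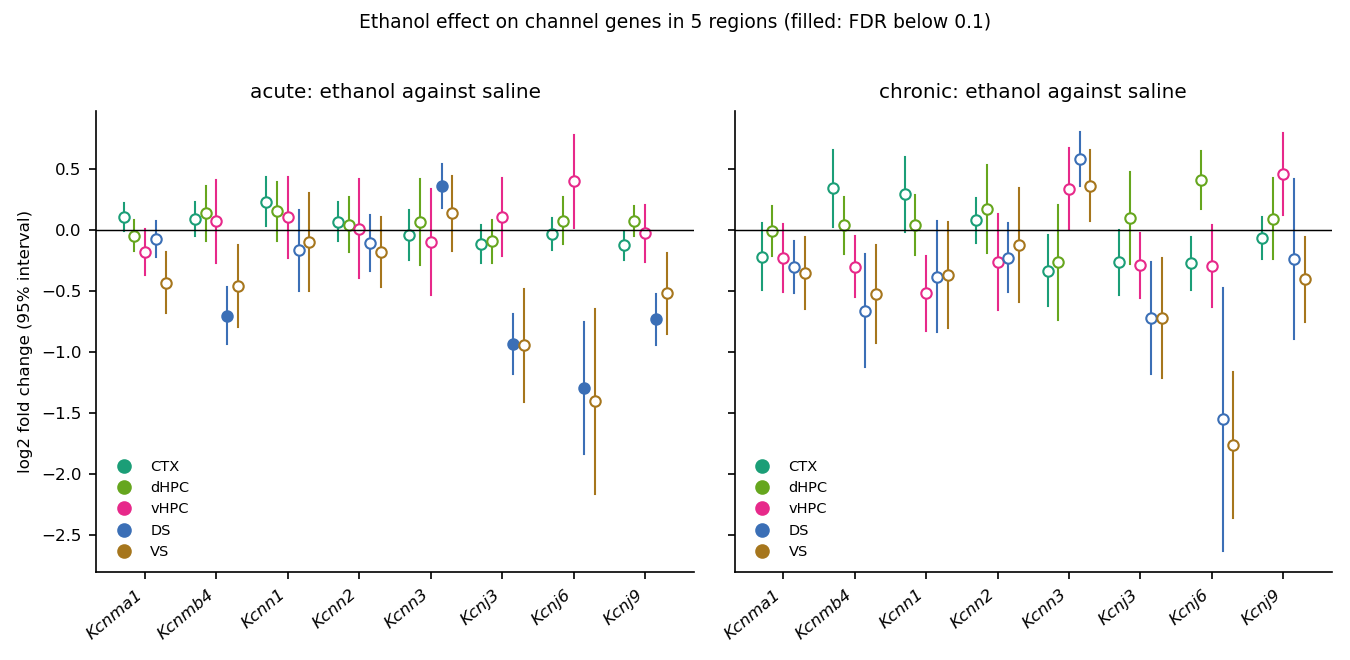
Log2 fold change of ethanol against saline for each channel gene in the 5 regions, acute and chronic, with its 95% interval; filled points have FDR below 0.1 and the horizontal line marks no change. Filled points occur in DS after acute ethanol only, and Kcnj6 has the lowest estimate in DS and VS under both paradigms.

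The acute effect differed between regions for 5 of the 8 genes. A test of the difference among all 5 regions called Kcnj6 (FDR = 0.00223), Kcnj9 (FDR = 0.00899), Kcnj3 (FDR = 0.00957), Kcnmb4 (FDR = 0.0286) and Kcnma1 (FDR = 0.0631), where 1.96% of all genes were called. Kcnn3, Kcnn2 and Kcnn1, the SK genes, were not (FDR from 0.664 to 0.941). With the vHPC, DS and VS libraries only, Kcnj6 alone was called, and between CTX and dHPC none was. Leaving out each library in turn kept Kcnj6, Kcnj9, Kcnj3 and Kcnmb4 called every time and Kcnma1 in 22 of 31 fits. Libraries of different regions share mice, which this test treats as independent. With the mouse as a block, a choice made after the data were seen, Kcnj6 (FDR = 0.00306), Kcnmb4 (FDR = 0.00708), Kcnj3 (FDR = 0.0151) and Kcnj9 (FDR = 0.027) were called and Kcnma1 was not (FDR = 0.108), where 2.45% of all genes were called.

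After chronic ethanol edgeR called none of the 8 genes in any region, and the largest estimates were again those of Kcnj6 in DS and VS. Over all genes it called 0% in CTX, dHPC, DS and VS and 0.0555% in vHPC. Members with an unadjusted p below 0.05 in CTX, dHPC, vHPC, DS and VS numbered 4, 1, 5, 5 and 6, where 10.4%, 8.23%, 9.51%, 7.53% and 9.95% of all genes had one. Members with groups that did not overlap numbered 3, 1, 4, 6 and 2 in the same order, where 18.2%, 14.1%, 14.8%, 17.3% and 16% of all genes had such groups. DESeq2 called 0 in CTX and vHPC (0.608% and 1.08% of all genes), 1 each in dHPC and DS (0.859% and 0.776%) and 2 in VS (1.79%).

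In DS, 2 chronic saline libraries stood against 4 chronic ethanol libraries. Kcnn3 measured 45.2 and 39.5 CPM with saline and 65.9, 61.2, 62.7 and 66.1 CPM with ethanol, a fold change of 1.497 (log2 fold change 0.58 ± 0.10, unadjusted p = 0.000219, edgeR FDR = 0.207, DESeq2 adjusted p = 0.00372). The incomplete library, chronic saline replicate 2, had 39.09 CPM of Kcnn3, below all ethanol values as well. Kcnj6 measured 7.11 and 10.9 CPM with saline and 1.64, 3.24, 5.60 and 1.66 CPM with ethanol (-1.55 ± 0.48, edgeR FDR = 0.515). Kcnj3 measured 57.9 and 40.1 CPM with saline and 31.4, 29.0, 36.6 and 22.5 CPM with ethanol (-0.72 ± 0.20, edgeR FDR = 0.482). Neither pair of groups overlapped, and the incomplete library lay on the saline side with 62.9 CPM of Kcnj3 and 6.49 CPM of Kcnj6.

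Of the remaining members in DS after chronic ethanol, 3 had groups that did not overlap, with all ethanol values lower. Kcnma1 measured 166 to 201 CPM with saline and 147 to 156 CPM with ethanol, a fold change of 0.81 (95% interval 0.70 to 0.94). Kcnn1 measured 8.44 to 10.5 CPM with saline and 6.72 to 8.13 CPM with ethanol (fold change 0.77, 95% interval 0.56 to 1.05), and Kcnn2 25.3 to 26.3 CPM and 20.1 to 23.2 CPM (fold change 0.85, 95% interval 0.70 to 1.04). Kcnmb4 measured 36.6 and 23.6 CPM with saline and 17.2, 23.9, 19.2 and 16.6 CPM with ethanol (-0.66 ± 0.20), so the groups overlapped at 1 library. Kcnj9 measured 60.1 and 24.8 CPM with saline, farther apart than the ethanol libraries at 42.6, 38.8, 32.1 and 32.2 CPM (-0.24 ± 0.29). Without the low saline library the estimate was -0.74, and without the high one it was 0.54. When all 4 DS groups shared one estimate of the spread, Kcnn3 was called (FDR = 0.0163). With the incomplete library included over the chromosomes it holds, none was, and Kcnn3 had FDR = 0.114.

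In VS after chronic ethanol, Kcnj6 measured 11.8, 7.13 and 8.67 CPM with saline and 2.25, 3.45 and 2.47 CPM with ethanol. It was at 0.29 of its saline level (log2 fold change -1.76 ± 0.27, unadjusted p = 8.91e-05, edgeR FDR = 0.201, DESeq2 adjusted p = 2.2e-05). Kcnj3 measured 48.3, 29.2 and 45.9 CPM with saline and 25.1, 31.5 and 18.7 CPM with ethanol, which overlapped (-0.72 ± 0.22, edgeR FDR = 0.358, DESeq2 adjusted p = 0.0703). Kcnn3 measured 44.2, 45.0 and 53.0 CPM with saline and 58.6, 54.2 and 71.4 CPM with ethanol (0.36 ± 0.13, edgeR FDR = 0.404). Kcnj6 and Kcnn3 were the 2 members whose groups did not overlap here.

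The calls in VS depended on chronic saline replicate 5. It held the lowest saline value of Kcnj3, Kcnj6, Kcnj9 (43.3 against 64.6 and 52.7 CPM), Kcnmb4 (24.5 against 42.1 and 37.9 CPM) and Kcnma1 (130 against 196 and 157 CPM). Without it, edgeR called 5 members in VS: Kcnj6 (-1.91 ± 0.27, FDR = 0.0106), Kcnmb4 (-0.73 ± 0.11, FDR = 0.0148), Kcnj3 (-0.91 ± 0.18, FDR = 0.0365), Kcnma1 (-0.48 ± 0.10, FDR = 0.0441) and Kcnj9 (-0.53 ± 0.13, FDR = 0.0966). Over all genes 615 were then called, against 0 with it.

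In the other regions the chronic estimates were smaller and went different ways. In dHPC, Kcnj6 measured 45.9, 35.3 and 47.1 CPM with saline and 55.3, 58.6 and 56.8 CPM with ethanol, higher in all 3 (0.40 ± 0.10, edgeR FDR = 0.566, DESeq2 adjusted p = 0.0548). The lowest saline value, 35.3 CPM, was that of chronic saline replicate 5, the library with 2748 CPM of striatal markers, and without it the log2 fold change was 0.29 (edgeR FDR = 0.977). Dentate granule neuron markers in these dHPC libraries summed to 234 to 393 CPM with saline and 406 to 576 CPM with ethanol, with none of their 5 genes at 0 in any library, and edgeR called 0 of 5 (4 with an unadjusted p below 0.05, 2 by DESeq2). Myelin markers in the same libraries summed to 6141 to 7070 CPM with saline and 4906 to 5623 CPM with ethanol, with 0 of 6 called by edgeR, 6 with an unadjusted p below 0.05 and 6 called by DESeq2. Their part in the result was not tested. In CTX the lowest unadjusted p was that of Kcnj6, with 44.2, 43.5 and 38.3 CPM with saline and 37.6, 31.7 and 35.0 CPM with ethanol (-0.28 ± 0.10, edgeR FDR = 0.443). Kcnmb4 (0.34 ± 0.14), Kcnn3 (-0.34 ± 0.13) and Kcnj3 (-0.27 ± 0.12) followed there. Astrocyte markers in these CTX libraries summed to 2246 to 2681 CPM with saline and 1537 to 1975 CPM with ethanol, with 0 of 5 called by edgeR, 2 with an unadjusted p below 0.05 and 1 called by DESeq2. Their part in the CTX values was not tested.

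In vHPC after chronic ethanol, Kcnn1 measured 18.5, 17.0 and 20.6 CPM with saline and 14.2, 13.3 and 11.9 CPM with ethanol (-0.52 ± 0.14, edgeR FDR = 0.34). Kcnj9 measured 96.5, 77.5 and 71.1 CPM with saline and 90.8, 118 and 130 CPM with ethanol (0.46 ± 0.15, edgeR FDR = 0.42), and without chronic ethanol replicate 4, the lowest of these ethanol values, it was called (FDR = 0.0924). The groups of Kcnn1 did not overlap, those of Kcnj9 did. Kcnn3 (0.34 ± 0.15), Kcnmb4 (-0.30 ± 0.11) and Kcnj3 (-0.29 ± 0.12) also had an unadjusted p below 0.05. Choroid plexus markers in these vHPC libraries summed to 26.0 to 205 CPM with saline and 885 to 3199 CPM with ethanol, with 4 of 7 called higher and up to 3 of the 7 at 0 in a saline library. Myelin markers summed to 3069 to 5277 CPM with saline and 4468 to 8739 CPM with ethanol, with 0 of 6 called by edgeR, 6 with an unadjusted p below 0.05 and 1 called by DESeq2. Pallial neuron markers summed to 2133 to 2529 CPM with saline and 1497 to 2019 CPM with ethanol, with 0 of 9 called by edgeR or DESeq2 and 3 with an unadjusted p below 0.05. Astrocyte markers summed to 2968 to 3340 CPM with saline and 2348 to 2938 CPM with ethanol, with 0 of 5 called by edgeR or DESeq2 and 1 with an unadjusted p below 0.05. The part of these other cell types in the vHPC values was not tested.

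Across the 5 regions the chronic effect differed for Kcnj6 (FDR = 0.0435), where 0.306% of all genes were called. Kcnn3 (FDR = 0.162), Kcnmb4 (FDR = 0.196) and Kcnn1 (FDR = 0.216) came next. Leaving out dHPC chronic saline replicate 5, the library with many striatal markers, ended the call for Kcnj6 (FDR = 0.107), and it held in the other 29 of the 30 fits that left out 1 library. With the mouse as a block, again a choice made after the data were seen, no member was called, and Kcnj6 had FDR = 0.178 (unadjusted p = 0.000109), where 0.0332% of all genes were called.

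Acute and chronic effects were compared directly in each region by an interaction of paradigm and ethanol. No member was called in any of the 5 regions by edgeR, where 0% of all genes were called in each, or by DESeq2, which called 0.0791%, 0.00745%, 2.02%, 0.019% and 0.0191% of all genes in CTX, dHPC, vHPC, DS and VS. Members with an unadjusted p below 0.05 numbered 2 in CTX, 1 in dHPC, 3 in vHPC and 0 in DS and VS, where 8.19%, 4.48%, 11.5%, 4.16% and 4.62% of all genes had one. In DS the chronic minus acute difference in log2 fold change was -0.25 for Kcnj6 (95% interval -1.45 to 0.96), 0.22 for Kcnj3 (-0.31 to 0.75) and 0.23 for Kcnn3 (-0.04 to 0.49). These intervals are wide enough to hold an effect that is larger or smaller after 10 injections than after 1. In vHPC the largest difference was that of Kcnj6 (-0.70 ± 0.25, unadjusted p = 0.0132, FDR = 0.338), which lay above saline after acute and below it after chronic ethanol.

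The make-up of the SK and GIRK families in the striatum moved with these values. The share of Kcnn3 in the SK sum (RPKM) was 45.1% with acute saline and 53.5% with acute ethanol in DS (n = 3 each), and 42.0% (n = 2) and 57.0% (n = 4) in the chronic groups. In VS it was 48.1% and 52.7% in the acute groups, whose ranges overlapped, and 46.0% and 56.0% in the chronic groups. The share of Kcnj6 in the GIRK sum went from 4.29% to 3.10% (acute, DS), from 6.19% to 3.82% (acute, VS), from 6.57% to 2.69% (chronic, DS, with overlapping ranges) and from 5.57% to 2.44% (chronic, VS). The mean share of Kcnj9 went the other way in each, with overlapping ranges in DS. In VS after chronic ethanol, for example, it went from 58.1% (range 55.3 to 60.7%) to 65.1% (range 61.7 to 66.9%). These shares describe the same libraries as the tests above and were not tested separately.

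Markers of another cell class moved in the striatal libraries together with the channel genes. A list of 9 genes that mark excitatory neurons of the cortex and hippocampus (pallial neurons, among them Slc17a7, Neurod2, Neurod6, Tbr1, Emx1 and Lamp5) summed to 499 to 648 CPM in the acute saline DS libraries and to 177 to 269 CPM in the acute ethanol ones. Of the 9, 8 were called: 7 were lower, among them Slc17a7, the vesicular glutamate transporter of these neurons (-3.20 ± 0.50, FDR = 0.00295), and Lamp5 was higher (0.46 ± 0.11, FDR = 0.0433). Slc17a7 itself stood at 278 to 371 CPM with saline and 11.5 to 79.3 CPM with ethanol. Lamp5 (94.6 to 105 CPM) and Kcnv1 (53.9 to 70.8 CPM) made up most of the sum in each ethanol library. With saline they stood at 56.8 to 84.3 and 44.4 to 77.5 CPM, so the sum fell less than the 7 lower markers did. No marker was at 0 in a saline library.

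In the other 3 striatal comparisons edgeR called at most 1 of the 9 markers. In each, Lamp5 was higher in all ethanol libraries than in all saline ones, against the sum, and Kcnv1 overlapped between the groups. In VS the 9 genes summed to 432 to 904 CPM with acute saline and 139 to 290 CPM with acute ethanol, with 8 of 9 estimates negative, 1 of 9 called by edgeR and 7 by DESeq2, and Emx1 was at 0 in 1 ethanol library. In DS they summed to 521 to 717 CPM with chronic saline and 142 to 305 CPM with chronic ethanol, with 7 of 9 estimates negative, 0 of 9 called by edgeR, 7 with an unadjusted p below 0.05 and 3 called by DESeq2, and Neurod2 was at 0 in 1 ethanol library. In VS the chronic saline libraries summed to 141 to 840 CPM and the chronic ethanol ones to 136 to 236 CPM, which overlapped, with 8 of 9 estimates negative, 0 of 9 called by edgeR, 8 with an unadjusted p below 0.05 and 4 called by DESeq2. In the saline libraries of CTX and vHPC, where these neurons belong, the sums were 2002 to 2249 CPM and 1542 to 2529 CPM.

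Markers of striatal projection neurons moved the opposite way in DS after acute ethanol. They summed to 5870 to 6847 CPM with saline and 7610 to 7963 CPM with ethanol, and 8 of 10 were called higher. Other marker lists gave fewer calls there: 2 of 7 choroid plexus genes were higher (sums of 21.7 to 303 CPM with saline and 72.1 to 809 CPM with ethanol), 1 of 5 astrocyte and 1 of 6 thalamic genes were lower, and no dentate granule, myelin or microglia gene was called. In VS the striatal markers summed to 2645 to 4307 CPM with acute saline and 2248 to 5049 CPM with acute ethanol, with 0 of 10 called and 0 with an unadjusted p below 0.05. Dentate granule sums in those VS libraries were 14.9 to 15.5 CPM with saline and 15.9 to 27.0 CPM with ethanol. After chronic ethanol edgeR called 0% of all genes in DS and in VS. In DS, myelin markers then summed to 8910 to 9218 CPM with saline and 6090 to 8426 CPM with ethanol. Choroid plexus sums in the same libraries were 1927 to 7200 CPM and 21.5 to 3092 CPM, which overlapped. After chronic ethanol in VS, dentate granule markers summed to 22.6 to 31.4 CPM with saline and 10.3 to 13.5 CPM with ethanol. Astrocyte sums there were 1478 to 1883 CPM and 1375 to 1446 CPM, and thalamic sums 77.2 to 88.6 CPM and 90.4 to 113 CPM. The sums of the other lists overlapped there. With saline, Kcnj3, Kcnj6, Kcnj9 and Kcnmb4 were higher in vHPC than in striatum, as above, and Kcnn3 was lower. In DS after acute ethanol these 5 genes moved further from their vHPC levels. Kcnma1, Kcnn1 and Kcnn2 were also higher in vHPC than in striatum, but were not called in DS after acute ethanol. The part of these other cell types in the channel results was not tested.

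In VS, chronic saline replicate 5 had a pallial sum of 141 CPM, within the range of the chronic ethanol libraries. Its Kcnj3 (29.2 CPM), Kcnj9 (43.3 CPM), Kcnmb4 (24.5 CPM) and Kcnma1 (130 CPM) lay within the ethanol ranges as well, while its Kcnj6 (7.13 CPM) was above all 3 ethanol libraries and its Kcnn3 (45.0 CPM) was below all 3. This is a single library.

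**Figure D4:**
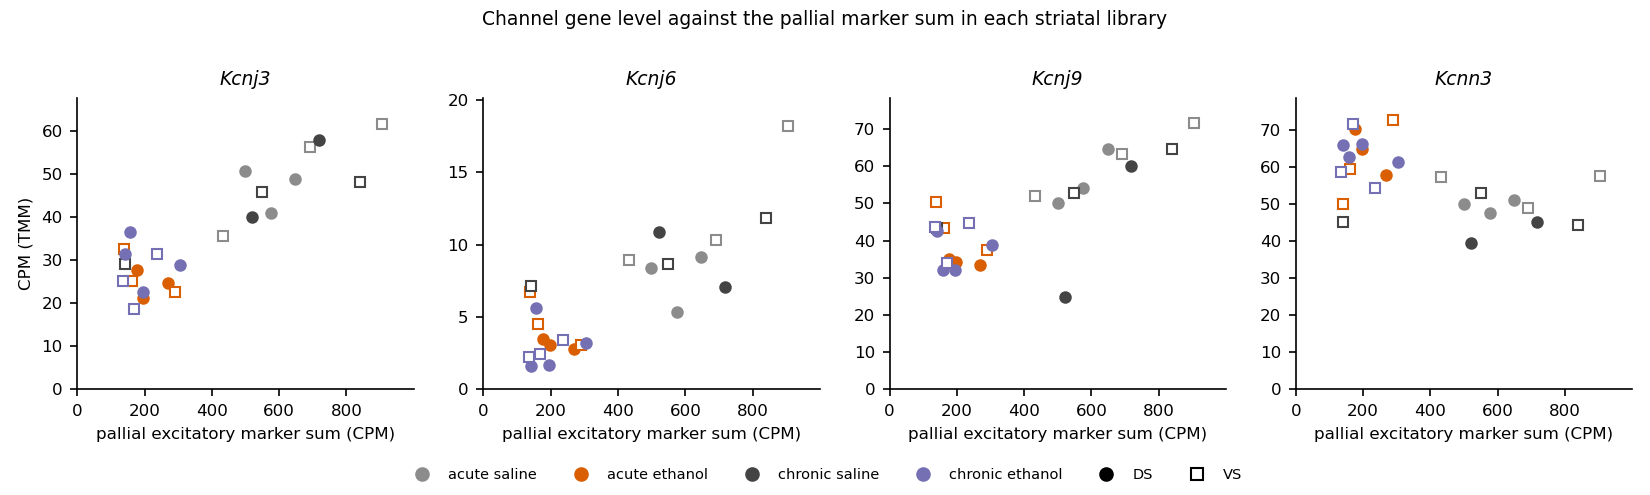
CPM of Kcnj3, Kcnj6, Kcnj9 and Kcnn3 (vertical axes) against the summed CPM of 9 pallial neuron markers (horizontal axis) in each DS (filled circles) and VS (open squares) library, coloured by treatment. Saline libraries lie to the right, except 1 VS library at 141 CPM, and ethanol libraries lie between 136 and 305 CPM. The sum includes Lamp5, which was higher in the ethanol libraries, and Kcnv1, whose groups overlapped.

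Between ethanol and saline, edgeR called genes that work with these channels in DS after acute ethanol only. Of 10 BK auxiliary subunits and relatives and 9 SK partners, edgeR called none in any region under either paradigm (0% to 5.15% of all genes). After acute ethanol DESeq2 called 2 of the 7 BK relatives tested in DS (6.4% of all genes) and 1 of 7 in VS (0.889%). After chronic ethanol it called 1 of 7 in DS (0.776%), and it called no SK partner. Per comparison, 0 to 3 BK relatives and 0 to 1 SK partners had an unadjusted p below 0.05 (7.32% to 15.5% of all genes). Of 14 GIRK partners in DS after acute ethanol, edgeR called 3 (5.15% of all genes) and DESeq2 4 (6.4%). In the other 9 comparisons edgeR called 0 (0% to 1.99% of all genes) and DESeq2 0 to 2 (0.608% to 3.69%). There 1 to 5 had an unadjusted p below 0.05 (7.32% to 12.5% of all genes). Over these 14 genes in DS the median log2 fold change was 0.03, against 0.00 over all genes.

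Gabbr2, the GABA-B receptor subunit that couples to the G protein upstream of GIRK channels, measured 141, 132 and 148 CPM with saline and 84.4, 91.0 and 85.6 CPM with acute ethanol in DS. All ethanol values were lower, and the log2 fold change was -0.71 ± 0.07 (FDR = 0.000149). Its partner subunit Gabbr1 was not called. Kctd12 and Kctd8, auxiliary subunits that bind the GABA-B receptor, were higher (0.39 ± 0.07, FDR = 0.0112, and 0.68 ± 0.18, FDR = 0.0602). Like Kcnj3 and Kcnj6, Gabbr2 was lower in striatum than in hippocampus with saline, at 19.7 RPKM in DS and 20.8 in VS against 57.9 in vHPC, and the acute effect on it differed among the 5 regions (FDR = 0.00214). Among the BK relatives that test called Kcnt2, a sodium-activated potassium channel (FDR = 0.0124).

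Other subunits that could assemble with the members differed in level. Lrrc55, a BK gamma subunit, averaged 5.03 RPKM in CTX and 2.97 RPKM in dHPC, and 2.81, 2.31 and 2.77 RPKM in vHPC, DS and VS, while the gamma subunits Lrrc26 and Lrrc38 reached 1.45 and 1.41 RPKM in CTX. Kcnj5, the GIRK4 gene, reached 0.47 RPKM in VS and at most 0.16 RPKM elsewhere, and Kcnn4 at most 0.09 RPKM. The BK beta subunit genes Kcnmb1, Kcnmb2 and Kcnmb3 stayed under the level of Kcnmb4 in all regions, the highest mean being 0.94 RPKM for Kcnmb2 in vHPC. In saline mice 3 of 7 BK relatives, 5 of 9 SK partners and 11 of 14 GIRK partners were called between DS and vHPC, where 42% of all genes were. The largest of these differences were those of Kctd8 (2.16), Kcnt1, another sodium-activated potassium channel (2.05), Kcnmb2 (-1.75) and Gabbr2 (-1.56), all on the log2 scale.

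Across 61 libraries, after centring each gene within its library set, the members followed each other to different degrees. The closest pair was Kcnj3 and Kcnj6 (Pearson r = 0.951 on log2 CPM), while Kcnn3 ran against all the others (r from -0.576 with Kcnn2 to -0.870 with Kcnn1). Among 18018 genes with a mean of at least 1 CPM, the gene most like Kcnj3 was Dlgap1, a postsynaptic scaffold (r = 0.980), the most like Kcnj6 was Olfm1 (r = 0.968) followed by Faah, the enzyme that breaks down anandamide (r = 0.967), and the most like Kcnj9 was Rap1gap2 (r = 0.947). For the BK genes they were Rims1, a presynaptic active zone protein (r = 0.946, Kcnma1), and Basp1 (r = 0.943, Kcnmb4). For 2 of the SK genes they were Sh3rf1 (r = 0.941, Kcnn2) and Plppr1 (r = 0.922, Kcnn3). These libraries share mice and regions, so the correlations mainly rank regional profiles and carry no test.

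The annotated isoforms of the members were counted as well, 68 in all and 34 of them of Kcnma1. A read on a shared exon counts for each isoform that holds it, so isoforms of a gene are not independent of each other. In DS after acute ethanol 12 of the 68 were called, where 3.59% of all isoforms were: all 3 of Kcnj3, all 3 of Kcnj9, 3 of 4 of Kcnmb4, 2 of 7 of Kcnj6, all lower, and 1 of 2 of Kcnn3, which was higher. The log2 fold changes of the isoforms ranged from -0.95 to -0.81 for Kcnj3, from -0.91 to -0.77 for Kcnj9 and from -1.26 to -0.94 for Kcnj6, so no isoform of these genes went against its gene. DESeq2 called 12 of the 68 in DS (3.64% of all isoforms), and 18 had an unadjusted p below 0.05 (13.5%). The 34 Kcnma1 isoforms ranged from -0.49 to 0.09, and none was called.

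In VS after acute ethanol 67 member isoforms were tested and edgeR called 1, of Kcnj3 (-1.08 ± 0.19, FDR = 0.0635), where 0.233% of all isoforms were called. Of the 67, 45 had an unadjusted p below 0.05 (6.98% of all isoforms), 30 of them isoforms of Kcnma1. DESeq2 called 20 (0.708%), made up of 9 of Kcnma1, 6 of 7 of Kcnj6, 3 of Kcnj3 and 2 of Kcnj9. No member isoform was called by edgeR in the other acute comparisons or in any chronic comparison. The share of all isoforms called there was 1.24% in CTX, 0.0015% in dHPC and 0% in vHPC for acute ethanol, and 0.0402% in vHPC, 0.00827% in VS and 0% in CTX, dHPC and DS for chronic ethanol. DESeq2 called no member isoform in CTX, dHPC and vHPC after acute ethanol (2.24%, 0.704% and 1.65% of all isoforms) or in CTX and vHPC after chronic ethanol (0.301% and 0.723%). It called 3 in dHPC (0.506%), 7 in DS (0.467%) and 9 in VS (1.02%) after chronic ethanol. Unadjusted p values below 0.05 numbered 7, 0 and 7 in CTX, dHPC and vHPC after acute ethanol, where 11.2%, 7.69% and 11% of all isoforms had one. After chronic ethanol they numbered 11, 7, 43, 19 and 23 in CTX, dHPC, vHPC, DS and VS, where 9.8%, 7.23%, 8.81%, 7.32% and 9.01% had one. Of the 43 in vHPC, 25 were isoforms of Kcnma1, which can count the same reads. Kcnma1 as a gene had no unadjusted p below 0.05 there.

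**Figure D5:**
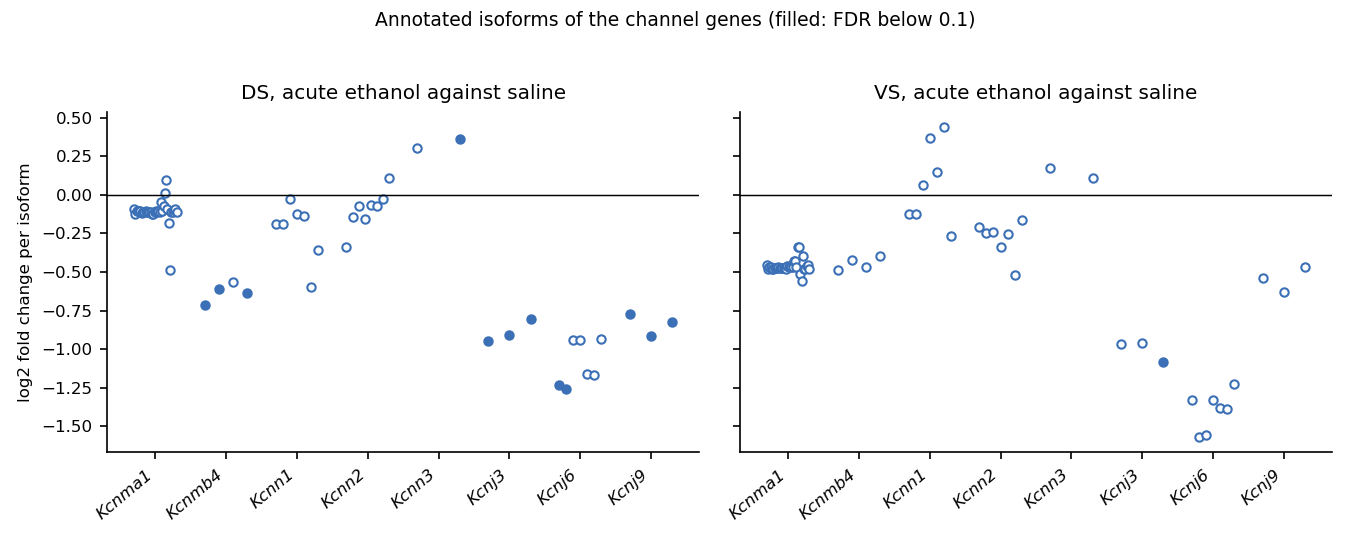
Log2 fold change of acute ethanol against saline for each annotated isoform of the channel genes in DS and VS; filled points have FDR below 0.1. In DS the isoforms of Kcnj3, Kcnj6, Kcnj9 and Kcnmb4 lie below 0 and both of Kcnn3 above it, and in VS 1 isoform of Kcnj3 is filled.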

How the data were processed

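Poly(A) RNA-seq libraries of 62 tissue samples from 16 mice were analysed. Per the labels and the study's methods, the authors used Cutadapt 5.0 for trimming and STAR 2.7.10a for alignment to GRCm39, and counted exon reads of Ensembl 113 genes with featureCounts 2.0.6 as reverse-stranded read pairs, multi-mapping and overlapping reads included. The deposited values are raw counts per gene and per isoform, 8149628 to 71164766 per library. The same strand setting was given for the non-directional CTX and dHPC libraries, and its effect was not tested.

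Counts were tested in R 4.3.3 with edgeR 4.0.16 (TMM, quasi-likelihood test), on the 2 groups of each region and paradigm. A gene was tested where 2 or more samples of either group held 5 or more counts. The call threshold was a Benjamini-Hochberg adjusted p of 0.1 over all genes tested. Interactions used the 4 groups of a region, regional differences all groups of a paradigm, and saline levels all saline libraries of a library set. CPM are counts scaled to the TMM-adjusted library size over all libraries, and RPKM are these per kilobase of exon. DESeq2 1.42.0, other filters, size factors, a shared fit and leaving out each library were alternatives. The tests were tested on simulated data first. The incomplete DS library (chronic saline replicate 2) entered only where named.

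All 8 members are named in every comparison; related genes and markers are named by list, and likeness by the 2 highest correlations per member. Some values under these rules are not reported here. Members and lists were chosen with earlier results of these data known. Replicate numbers name mice, and saline and ethanol mice differ, so the numbers do not pair treatments. Intervals are 95%.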

Additional observations from a re-analysis of the deposited data

Results flagged for a closer look

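Among 70 groups of 4 to 6 values, 4 held a sample far from the rest by Dixon's ratio, where chance gives about 1 in 20. Kcnma1 was highest in chronic ethanol replicate 4 of DS (156 CPM, others 147 to 148 CPM). Kcnn1 was lowest among the saline DS libraries in chronic saline replicate 3 (8.44 CPM, others 10.5 to 11.03 CPM). Kcnj6 was lowest among the saline CTX libraries in chronic saline replicate 6 (38.3 CPM, others 43.5 to 45.1 CPM). Striatal projection neuron markers summed to 2748 CPM in chronic saline replicate 5 of dHPC, against 241 to 952 CPM in the other saline libraries of that region.

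The effect of acute ethanol differed among the 5 regions (edgeR, adjusted p) for Kcnj6 (0.00223), Kcnj9 (0.00899), Kcnj3 (0.00957), Kcnmb4 (0.0286) and Kcnma1 (0.0631), and that of chronic ethanol for Kcnj6 (0.0435). With the mouse as a block, a choice made after the data were seen, Kcnma1 (0.108) and the chronic Kcnj6 difference (0.178) were no longer called.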

How the results depend on the processing

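Of 451 recomputed counts of called members or isoforms over 31 results, 408 stayed within 1.5 times the value given and 43 did not. Of 549 recomputed member estimates that were called, 0 changed sign and 4 lost the call. Of 1745 that were not called, 88 changed sign and 33 were called. Most of the 549 were saline differences between regions, and the rest were ethanol effects in DS after acute ethanol. Among the 4 lost calls, Kcnn3 without acute ethanol replicate 5 and Kcnj6 and Kcnj9 with all 4 groups in one fit were such ethanol effects. For each count that moved, the cause was not tested. DS after acute ethanol kept 4 to 5 members without each library in turn and 3 with all 4 groups in one fit. VS after acute ethanol gave 3 with DESeq2, 4 without the low-count filter and 0 to 1 without each library. In dHPC after chronic ethanol DESeq2 gave 1. In vHPC after chronic ethanol, no filter gave 1 and leaving out libraries 0 to 1. DS after chronic ethanol gave 1 with DESeq2, 4 without the filter and 1 with all 4 groups in one fit. VS after chronic ethanol gave 2 with DESeq2, 3 without the filter, and 0 to 5 without each library, with 5 without chronic saline replicate 5. The vHPC interaction gave 1 without the filter. The regional difference of the acute effect gave 1 with vHPC, DS and VS only, 0 with CTX and dHPC only and 4 to 5 without each library. That of the chronic effect gave 4 without the filter, 0 in either library set alone, 0 with the mouse as block, and 0 to 2 without each library. With ethanol libraries, a choice made after the data were seen, 3 members were called between DS and VS. For isoforms after acute ethanol, CTX gave 1 without the filter, DS 8 to 14 without each library, and VS 20 with DESeq2, 38 without the filter and 0 to 11 without each library. After chronic ethanol, dHPC isoforms gave 3 with DESeq2, vHPC 1 without the filter and 0 to 2 without each library, DS 7 with DESeq2 and 10 without the filter, and VS 9 with DESeq2, 10 without the filter and 0 to 14 without each library.

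A fit with the replicate number as a block was possible in CTX and dHPC after acute ethanol, in CTX after chronic ethanol and for the CTX interaction, and called 0 members in each, as without it. With the mouse as block the region levels gave 7, 8, 8 and 0 members, unchanged. Same-numbered samples of the treatments are different mice, and their deviations correlated between -0.176 and 0.481. The other treatment comparisons share fewer than 2 numbers, so no paired analysis was possible there.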
